A study of Mus musculus with 6 samples.

Results

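The genes of mitosis and its spindle checkpoint were followed by RNA sequencing in 266.6 cells, a mouse pancreatic acinar tumour line. The members are 41 genes picked by symbol from the deposited table, covering G2/M cyclins, mitotic kinases, kinetochore, condensin and cytokinesis genes. All 41 had a row among the 20596 rows that carry a gene symbol, and all 41 passed the filter of at least 10 normalized counts in at least 3 libraries. Treated cells were kept for up to 40 days in medium conditioned by cancer-associated fibroblasts (CAF_CM, 3 libraries) and were set against untreated cells of the same line (control, 3 libraries). All 6 libraries came from cells grown in high-glucose DMEM with 10% serum. The labels repeat the text on conditioned medium for the controls, so the controls' own culture period is not known, and exposure and culture period cannot be told apart. As background, 266.6 cells, controls included, come from a mouse tumour driven by a viral T antigen under an elastase promoter, and this antigen binds the cell cycle regulators RB and p53. The labels do not say whether the 3 libraries of a group were separate cultures, so the p-values weigh differences against a spread among libraries that may be technical only.

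Each library held between 18622370 and 21002226 reads. Of 12 acinar markers, 11 had a row, 6 were lower and none higher, and their summed level was 34376 to 40741 normalized counts in CAF_CM libraries, against 65814 to 68345 in control libraries. Ctrb1, the chymotrypsinogen gene, was the highest of them and made up most of that sum. It had 20975 to 25180 normalized counts in CAF_CM and 44364 to 46221 in control libraries. Cela2a, Pnlip and Cel were at 30.6 normalized counts or less in every library. The log2 fold change was negative in 7 of the 11 acinar markers and positive in 4. Those 4, none of them called, were Prss2 (0.31, limma adjusted p = 0.0602), Ptf1a (0.15), Bhlha15 (0.14) and Cpa1 (0.12). Of 10 fibroblast markers, 6 had a row, with Col1a2 higher and Dcn lower, and a sum of 3073 to 3516 normalized counts in CAF_CM and 3427 to 3614 in control libraries, nearly all of it Pdgfrb, and Col1a1 was at 14.4 or less throughout. Of 7 immune markers, 2 had a row, Ptprc at 3.9 normalized counts or less and Cd68 at 56.8 to 97.8 in CAF_CM and 84.8 to 101.5 in control libraries. Of 6 duct markers, 5 had a row, with a sum of 666 to 742 normalized counts in CAF_CM and 545 to 588 in control libraries. Sox9 made up most of it and was higher (log2 fold change 0.46), and Krt7, too low to be tested, was at 6.18 to 7.59 in CAF_CM and 1.02 to 1.93 in control libraries. Of 5 endothelial markers, 3 had a row, with a sum of 158 to 191 normalized counts in CAF_CM and 197 to 226 in control libraries. The part of these differences in the members' values was not tested. In bulk RNA, a change in the share of cells in mitosis and a change in the RNA per mitotic cell cannot be told apart.

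Mitosis runs on a wave of gene expression. Transcripts of cyclin B, Aurora A and many kinetochore genes accumulate in G2 and are lost as cells divide. Cyclin B with Cdk1 drives entry, condensin packs the chromosomes, and the kinetochore ties each chromosome to spindle microtubules. The spindle checkpoint holds the anaphase-promoting complex (APC/C) until every kinetochore is attached. APC/C bound to Cdc20 then destroys securin and cyclin B, separase cuts cohesin, and the cell is cleaved in cytokinesis. The promoters of many of these genes carry CCAAT boxes, bound by NF-Y, and a cell cycle homology region (CHR), bound by the MuvB complexes that repress or activate G2/M genes.

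All changes of the members were small, and those called higher in CAF_CM libraries came from several roles. They were 4 of 8 entry, 3 of 6 chromosome packing, 2 of 3 cytokinesis, 2 of 4 spindle assembly and 2 of 5 spindle checkpoint genes. The other roles held none. In all, 13 of 41 members were higher (31.7%) and 2 were lower (4.88%) at an adjusted p under 0.05 in limma with Benjamini-Hochberg adjustment over 16169 genes. The same test called 18.3% of all genes higher and 16.1% lower. The members are abundant, with a median level of 2579 normalized counts against 431 for all genes tested. Among the 4974 genes with a mean of at least 1000 normalized counts, 34.0% were called higher and 13.8% lower. Of the 36 members at that level, 13 were called higher (36.1%) and 1 lower (2.78%). The share of higher calls was thus close to that of other genes of such levels. The median log2 fold change was 0.071 over the members and 0.0046 over all genes tested.

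The largest rise was that of Ect2, at 1.36-fold. In 18 of 41 members (43.9%) every CAF_CM library lay above every control library, against 24.8% of all genes (47.7% in either direction). In 5 members (12.2%) every CAF_CM library lay below, against 22.9% of all genes. All 18 members that lay above were among the 36 with a mean of at least 1000 normalized counts. The share of all genes of such levels without overlap was not computed, so the 24.8% is not matched for level. With library totals as the only scaling, 11 members were higher and 3 lower, and the split of all genes was 2231 higher and 3179 lower, against 2953 and 2602 with the authors' scaling. Without control replicate 1 only 8 members were called higher, and without CAF_CM replicate 1 the count was 19.

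**Figure D1:**
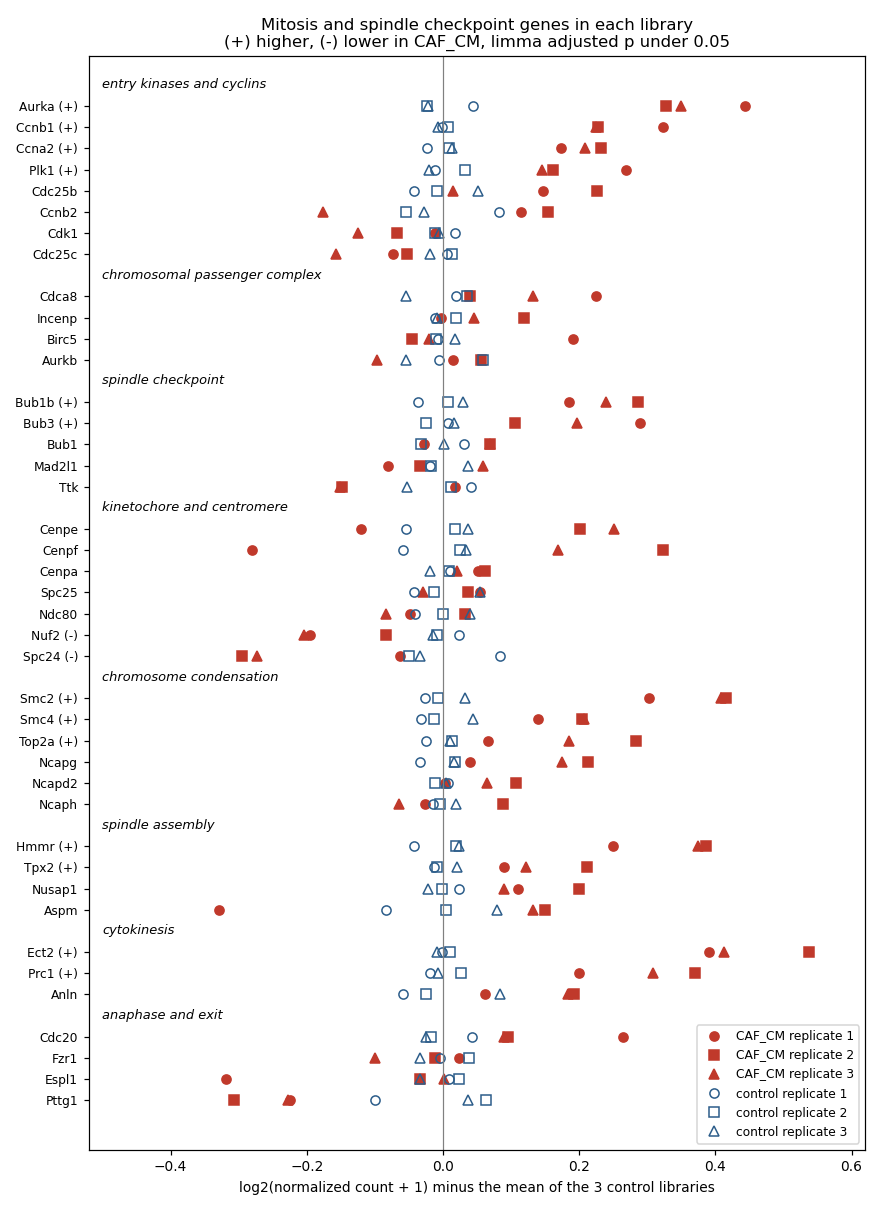
Each row is a gene, grouped by role, and each point 1 library, plotted as log2(normalized count + 1) minus the mean of the 3 control libraries; filled red points are CAF_CM, open blue points control, and the shape gives the replicate number. The CAF_CM points of Ect2, Smc2, Aurka and Hmmr all sit to the right of the controls, whereas CAF_CM replicate 1 lies far to the left of replicates 2 and 3 for Cenpf, Aspm and Espl1.

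The promoters of members that rose can be set beside those of members that did not. RefSeq promoter sequences (GRCm38.p6, 250 bases before to 50 after the start, first listed start of each gene) were matched by symbol for 34 of 41 members, 10 of them called higher, 1 called lower and 23 not called. The letters searched on both strands were TTTGAA and TTTAAA for the CHR, CCAAT for the CCAAT box, TTCCCGC and TTGGCGC for E2F-type sites and TGTTTAC for the FOX core. The 8 stretches here run from base -120 to base 30 around the start, counted with the start as base 1. They were chosen to show 5 genes that rose, 2 entry genes with the same motifs that were not called, and 1 gene that fell and has none of the CHR or CCAAT letters. Capitals mark CHR and CCAAT matches in either orientation, so that ATTGG is a CCAAT box and TTCAAA a CHR on the other strand.
Hmmr (chr11:40733408-40733557, minus strand): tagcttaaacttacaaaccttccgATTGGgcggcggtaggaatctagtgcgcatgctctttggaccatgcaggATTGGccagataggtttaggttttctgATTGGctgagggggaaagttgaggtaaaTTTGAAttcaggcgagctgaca
Prc1 (chr7:80294331-80294480, plus strand): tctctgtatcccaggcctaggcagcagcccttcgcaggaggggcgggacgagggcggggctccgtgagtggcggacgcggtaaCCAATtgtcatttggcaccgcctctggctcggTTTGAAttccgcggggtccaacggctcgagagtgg
Ccnb1 (chr13:100786457-100786606, minus strand): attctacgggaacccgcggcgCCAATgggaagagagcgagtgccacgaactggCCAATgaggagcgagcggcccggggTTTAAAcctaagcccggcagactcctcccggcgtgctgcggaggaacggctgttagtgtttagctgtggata
Top2a (chr11:99024160-99024309, minus strand): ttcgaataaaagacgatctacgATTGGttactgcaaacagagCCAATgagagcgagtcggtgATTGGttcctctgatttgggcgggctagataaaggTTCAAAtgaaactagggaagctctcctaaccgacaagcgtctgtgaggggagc
Aurka (chr2:172370541-172370690, minus strand): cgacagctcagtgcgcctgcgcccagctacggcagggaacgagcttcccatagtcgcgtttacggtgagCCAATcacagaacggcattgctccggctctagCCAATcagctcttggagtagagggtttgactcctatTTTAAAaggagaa
Ccnb2 (chr9:70421525-70421674, minus strand): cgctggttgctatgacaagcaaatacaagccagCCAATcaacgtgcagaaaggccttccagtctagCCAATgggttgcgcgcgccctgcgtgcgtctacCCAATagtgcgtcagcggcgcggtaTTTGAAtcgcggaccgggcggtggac
Cdk1 (chr10:69352883-69353032, minus strand): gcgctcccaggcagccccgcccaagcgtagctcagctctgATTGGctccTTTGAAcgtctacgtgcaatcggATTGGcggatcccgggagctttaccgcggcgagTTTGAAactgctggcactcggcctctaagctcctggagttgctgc
Nuf2 (chr1:169531435-169531584, minus strand): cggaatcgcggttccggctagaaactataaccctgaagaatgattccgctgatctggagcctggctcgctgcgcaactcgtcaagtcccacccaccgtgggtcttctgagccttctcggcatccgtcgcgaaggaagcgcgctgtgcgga

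A CHR match was present in 26 of the 34 member promoters (76.5%) and in 27.8% of all 27025 promoters of the same length. CCAAT letters were in 26 of 34 members (76.5%) and in 37.9% of all promoters, and both kinds together in 23 of 34 (67.6%) and in 10.9%. All 10 promoters of members called higher held both, as did 13 of the 23 promoters of members not called. In Prc1 the CCAAT box starts at base -37 and the CHR at base -5, and in Ccnb1 they start at bases -67 and -42. Ccnb2 has CCAAT boxes at bases -87, -54 and -21 before a CHR at base 5. A CCAAT box starting 25 to 40 bases before a CHR, a spacing chosen after the positions were seen, occurred in 7 of 10 members called higher, in 6 of 23 not called and in 1.08% of all promoters. Among all genes tested that have a promoter in the table, the CHR letters were in 17.6% of those called higher and in 18.8% of the 10508 in all. E2F-type letters were in 6 of 34 members (17.6%) and in 6.93% of all promoters, or 12.7% of those of genes tested, and in Ccnb1 and Ect2 they overlap a CCAAT box. The FOX core was found in Ect2 and Nuf2 only, and in 3.55% of all promoters. A letter match is a description of the sequence and was not tested against the change in RNA.

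**Figure D2:**
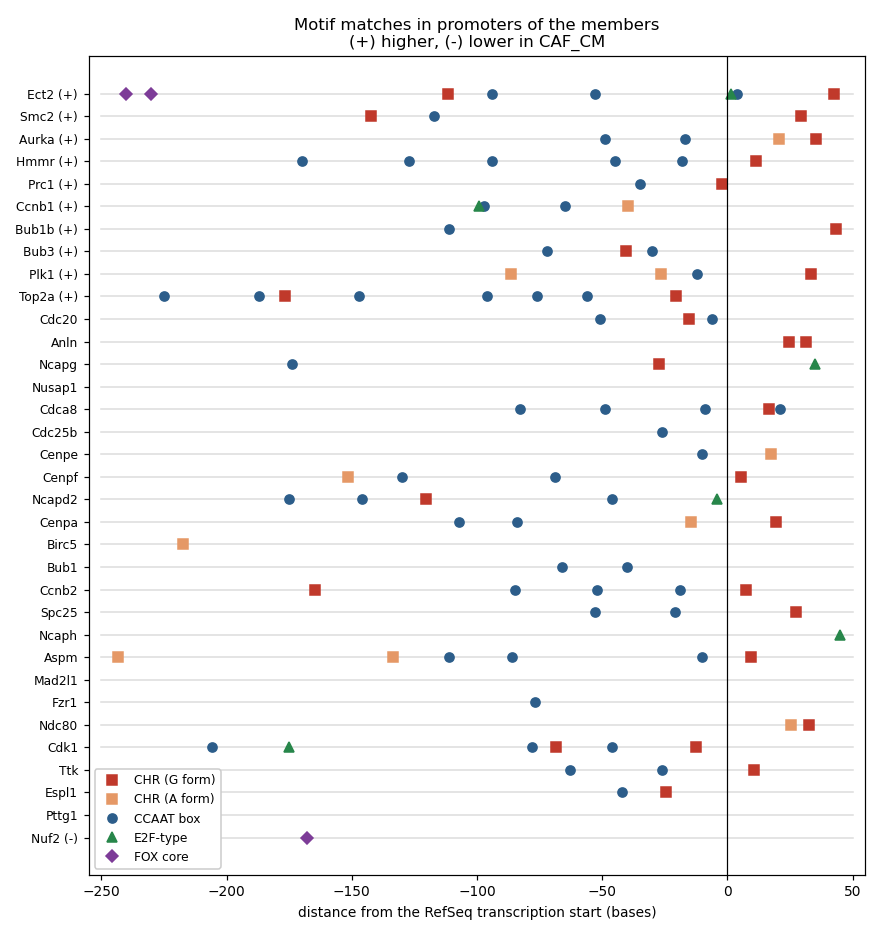
Each line is the promoter of 1 member, from 250 bases before to 50 bases after the RefSeq start, with squares for CHR letters (the G form is TTTGAA, the A form TTTAAA), circles for CCAAT boxes, triangles for E2F-type and diamonds for FOX core letters; genes run from the largest rise at the top to the gene called lower at the bottom. All 10 promoters of genes that rose, marked with a plus sign, hold a square and a circle, and so do 13 of the 23 that were not called.

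Among 8 genes that drive entry into mitosis, 4 rose and none fell. Aurka, the Aurora A kinase of centrosomes and spindle poles, had 2412, 2227 and 2261 normalized counts in CAF_CM replicates 1, 2 and 3, against 1830, 1746 and 1748 in control replicates 1, 2 and 3. The groups did not overlap, and the log2 fold change was 0.37, SE 0.051 (limma adjusted p = 3.35e-04). Ccnb1, the B-type cyclin that takes Cdk1 into mitosis, had 4055, 3794 and 3785 normalized counts in CAF_CM libraries, against 3238, 3257 and 3224 in control libraries. Its control libraries lay within 33.7 counts of each other, CAF_CM replicate 1 was the highest library, and the log2 fold change was 0.26, SE 0.047 (limma adjusted p = 0.00166). The row of its pseudogene, Ccnb1.ps, held 417, 442 and 371 normalized counts in CAF_CM and 317, 304 and 284 in control libraries, and how the authors' counting divided reads between these copies is not known. Ccna2, the cyclin of S phase and G2, averaged 4792 ± 98.6 normalized counts in CAF_CM and 4157 ± 58.6 in control libraries (SD, n = 3 each, as for all means that follow), and the log2 fold change was 0.21, SE 0.044 (limma adjusted p = 0.00435). Plk1, the Polo kinase that acts from entry to cytokinesis, averaged 2685 ± 126 normalized counts in CAF_CM and 2350 ± 45.6 in control libraries (log2 fold change 0.19, limma adjusted p = 0.0127), and its call was lost without control replicate 1 or 3 (limma adjusted p = 0.0598 and 0.0638). Ccna2 shares 428 bases of exon with Exosc9 on the other strand, which averaged 792 ± 36.6 normalized counts in CAF_CM and 715 ± 34.2 in control libraries.

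The other 4 entry genes, Cdk1, Ccnb2, Cdc25b and Cdc25c, were not called in limma before any correction. Cdk1, the kinase bound by the products of Ccna2 and Ccnb1, had 5075, 4883 and 4692 normalized counts in CAF_CM libraries. Control libraries had 5178, 5076 and 5096. Every CAF_CM library was below the controls, the nearest by 1.36 counts, and the log2 fold change was -0.068 (95% interval -0.17 to 0.034, limma adjusted p = 0.286). Ccnb2, the second B-type cyclin, had 893, 918 and 729 normalized counts in CAF_CM libraries, against 873, 794 and 808 in control libraries. CAF_CM replicate 3 was the lowest and replicate 2 the highest of all 6 libraries, and the interval of the log2 fold change ran from -0.15 to 0.22. The phosphatases that switch Cdk1 on gave 1099 ± 80.4 normalized counts in CAF_CM and 1003 ± 33.3 in control libraries for Cdc25b, and 467 ± 17.8 and 499 ± 5.84 for Cdc25c in the same order (limma adjusted p = 0.140 and 0.288). Once each library was corrected for the length and GC content of transcripts, Cdk1 was called lower (-0.15, limma adjusted p = 0.0191) and Cdc25b higher (0.18, limma adjusted p = 0.0254).

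The chromosomal passenger complex, which corrects faulty attachments and guides cleavage, gave no call among its 4 genes in limma, edgeR or DESeq2. At an unadjusted p under 0.05, Cdca8 was higher in limma, 1 gene was higher in edgeR and 0 in DESeq2. Aurkb, its kinase, had 3259, 3350 and 3016 normalized counts in CAF_CM libraries, against 3213, 3358 and 3107 in control libraries. The groups overlapped throughout, and the 95% interval of the log2 fold change ran from -0.13 to 0.11. The scaffold gene Incenp averaged 3731 ± 159 normalized counts in CAF_CM and 3591 ± 43.3 in control libraries, and the survivin gene Birc5 2457 ± 226 and 2381 ± 26.4 in that order. Cdca8, which encodes borealin, had 2810, 2471 and 2635 normalized counts in CAF_CM libraries, against 2436, 2464 and 2316 in control libraries. The groups did not overlap, by a margin of 7.11 counts, and the log2 fold change of 0.13 had a limma adjusted p of 0.0917. It was called without CAF_CM replicate 2 (limma adjusted p = 0.0184) and after the length and GC correction (0.00295).

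Of 5 spindle checkpoint genes, Bub1b and Bub3 rose and the other 3 did not pass the test. Bub1b, which encodes the BubR1 inhibitor of APC/C, had 3274, 3514 and 3400 normalized counts in CAF_CM libraries, against 2808, 2894 and 2938 in control libraries. Every CAF_CM library was above every control, with a log2 fold change of 0.24, SE 0.048 (limma adjusted p = 0.00302). Bub3, the binding partner of Bub1 and BubR1, had 3938, 3467 and 3693 normalized counts in CAF_CM libraries, against 3240, 3168 and 3258 in control libraries. CAF_CM replicate 2 lay nearest to the controls, and the log2 fold change was 0.20, SE 0.054 (limma adjusted p = 0.0149), a call that was lost without control replicate 1, 2 or 3 (limma adjusted p = 0.0556, 0.0755 and 0.0504). The kinase gene Bub1 averaged 1865 ± 72.2 normalized counts in CAF_CM and 1817 ± 40.0 in control libraries. Mad2l1, which encodes the Mad2 protein that captures Cdc20, averaged 2010.0 ± 100.0 normalized counts in CAF_CM and 2035 ± 46.0 in control libraries. Ttk, the Mps1 kinase at the head of the checkpoint, averaged 817 ± 55.8 normalized counts in CAF_CM and 871 ± 28.7 in control libraries (log2 fold change -0.094, limma adjusted p = 0.286). Without CAF_CM replicate 1 the value of Ttk was -0.15 and past the threshold (limma adjusted p = 0.0479). After the length and GC correction Mad2l1 was lower (-0.15, limma adjusted p = 0.0181). For Mad2l1 that correction used an annotated transcript of 7557 bases, and other lengths were not tried.

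Kinetochore and centromere genes, 7 in number, held both falls among the members and no rise, and none was higher at an unadjusted p under 0.05 in limma, edgeR or DESeq2. Nuf2 and Spc24 both encode subunits of the NDC80 complex, the main microtubule attachment of the kinetochore. Nuf2 had 1588, 1715 and 1578 normalized counts in CAF_CM libraries, against 1847, 1808 and 1799 in control libraries, a log2 fold change of -0.16, SE 0.052 (limma adjusted p = 0.0318). Spc24 had 881, 750 and 762 normalized counts in CAF_CM libraries, against 976, 890 and 899 in control libraries, a log2 fold change of -0.21, SE 0.073 (limma adjusted p = 0.0433). For each gene all CAF_CM libraries lay below all controls, but both calls were lost in DESeq2 (adjusted p = 0.0639 for Nuf2 and 0.0611 for Spc24), after the length and GC correction (limma adjusted p = 0.0999 and 0.119) and without any 1 of the control libraries or CAF_CM replicate 3. The other subunits of the complex gave 1301 ± 54.2 normalized counts in CAF_CM and 1331 ± 37.2 in control libraries for Ndc80, and 1077 ± 32.4 and 1062 ± 36.8 for Spc25 in that order. Cenpa, the histone H3 variant that marks the centromere, averaged 3782 ± 54.9 normalized counts in CAF_CM and 3667 ± 41.0 in control libraries (log2 fold change 0.045, 95% interval -0.051 to 0.14, limma adjusted p = 0.464).

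Chromosome packing genes gave 3 rises among 6. Smc2, an ATPase core subunit of both condensins, had 6604, 7139 and 7104 normalized counts in CAF_CM libraries, against 5255, 5328 and 5476 in control libraries. The lowest CAF_CM library was 1128 counts above the highest control, and the log2 fold change was 0.38, SE 0.048 (limma adjusted p = 2.30e-04). Its partner Smc4 had 8032, 8400 and 8420 normalized counts in CAF_CM libraries, against 7131, 7229 and 7521 in control libraries, a log2 fold change of 0.18, SE 0.046 (limma adjusted p = 0.0102). Its call was lost without control replicate 1 or 2 (limma adjusted p = 0.0611 and 0.0631). The non-ATPase subunits of condensin I were not past the threshold in limma on all 6 libraries without weights, block or correction. Ncapg averaged 2937 ± 182 normalized counts in CAF_CM and 2658 ± 53.6 in control libraries (log2 fold change 0.14, limma adjusted p = 0.0618), Ncapd2 8131 ± 297 and 7805 ± 52.0, and Ncaph 2579 ± 144 and 2578 ± 29.95, each in that order. Ncapg was called higher without CAF_CM replicate 1 (0.19, limma adjusted p = 0.00199), with separate weights for the groups (0.0447) and after the length and GC correction (0.0236). Ncapg shares 699 bases of exon with Lcorl on the other strand, which averaged 1517 ± 62.8 normalized counts in CAF_CM and 1126 ± 22.9 in control libraries, and the part of Lcorl reads in the value of Ncapg was not tested. Top2a, the topoisomerase that untangles sister chromatids, had the highest values of the set, 14061, 16350 and 15273 normalized counts in CAF_CM libraries, against 13205, 13562 and 13533 in control libraries. CAF_CM replicate 1 lay nearest to the controls. The log2 fold change was 0.18, SE 0.058 (limma adjusted p = 0.0330), and it was 0.049 and no longer past the threshold after the length and GC correction (limma adjusted p = 0.425). The call was also lost without CAF_CM replicate 2 or 3 (limma adjusted p = 0.0700 and 0.0779) and without control replicate 1, 2 or 3 (0.121, 0.100 and 0.0944).

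Spindle assembly genes rose in 2 of 4 cases. Hmmr, a spindle and centrosome protein first described as a hyaluronan receptor, had 4138, 4547 and 4511 normalized counts in CAF_CM libraries, against 3379, 3528 and 3537 in control libraries. All CAF_CM libraries lay above all controls, and the log2 fold change was 0.34, SE 0.051 (limma adjusted p = 5.89e-04). Tpx2, the activator of Aurora A on spindle microtubules, had 4462, 4855 and 4564 normalized counts in CAF_CM libraries, against 4158, 4169 and 4257 in control libraries. Its log2 fold change was 0.14, SE 0.048 (limma adjusted p = 0.0405), the smallest rise that was called, and it was 0.057 after the length and GC correction (limma adjusted p = 0.287). The call was lost in DESeq2 (adjusted p = 0.0632), in edgeR with DESeq2 size factors (adjusted p = 0.0547) and with library totals (limma adjusted p = 0.147). It was also lost without CAF_CM replicate 2 or 3 (limma adjusted p = 0.0830 and 0.0660) and without control replicate 1, 2 or 3 (0.135, 0.144 and 0.0988). Nusap1, a microtubule bundling protein, averaged 1735 ± 71.3 normalized counts in CAF_CM and 1581 ± 25.6 in control libraries (log2 fold change 0.13, limma adjusted p = 0.0634), and it was called higher without CAF_CM replicate 1 (limma adjusted p = 0.0296).

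Cytokinesis genes held the largest change. Ect2, the exchange factor that activates RhoA at the cleavage furrow, had 3922, 4339 and 3981 normalized counts in CAF_CM libraries, against 2987, 3013 and 2971 in control libraries. The lowest CAF_CM library was 909 counts above the highest control, and the log2 fold change was 0.45, SE 0.051 (limma adjusted p = 1.18e-04). Prc1, which bundles the microtubules of the central spindle, had 2971, 3344 and 3201 normalized counts in CAF_CM libraries, against 2552, 2633 and 2574 in control libraries. CAF_CM replicate 1 was again the lowest of the 3, and the log2 fold change was 0.29, SE 0.053 (limma adjusted p = 0.00164). Prc1 shares 670 bases of exon with Rccd1 on the other strand, whose own row was lower, at 174 ± 20.6 normalized counts in CAF_CM and 260 ± 20.8 in control libraries. Anln, the scaffold of the contractile ring, averaged 2492 ± 124.5 normalized counts in CAF_CM and 2253 ± 117.5 in control libraries (log2 fold change 0.15, limma adjusted p = 0.0672), and its groups overlapped. It was called higher without CAF_CM replicate 1 (0.19, limma adjusted p = 0.00676), and its value was 0.034 after the length and GC correction (limma adjusted p = 0.583).

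Genes of anaphase and mitotic exit gave no call among 4 in limma, edgeR or DESeq2, with Cdc20 higher and Pttg1 lower at an unadjusted p under 0.05 in limma, 1 gene in each direction in edgeR, and 1 higher and 0 lower in DESeq2. Cdc20, the activator of APC/C at anaphase, had 3359, 2989 and 2976 normalized counts in CAF_CM libraries, against 2879, 2762 and 2750 in control libraries. The groups did not overlap, and the log2 fold change was 0.15, SE 0.056 (limma adjusted p = 0.0588). Its call was made without CAF_CM replicate 2 (limma adjusted p = 0.0304), with separate weights for the groups (0.0404) and after the length and GC correction (0.00113). Pttg1, the securin gene, was the least abundant member, with 137, 129 and 137 normalized counts in CAF_CM libraries, against 149, 167 and 164 in control libraries. It too showed no overlap, in the other direction, with a log2 fold change of -0.25, SE 0.10 (limma adjusted p = 0.0751). Fzr1, which encodes the activator Cdh1 of APC/C in late mitosis and G1, averaged 2180 ± 94.9 normalized counts in CAF_CM and 2224 ± 55.0001 in control libraries.

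**Figure D3:**
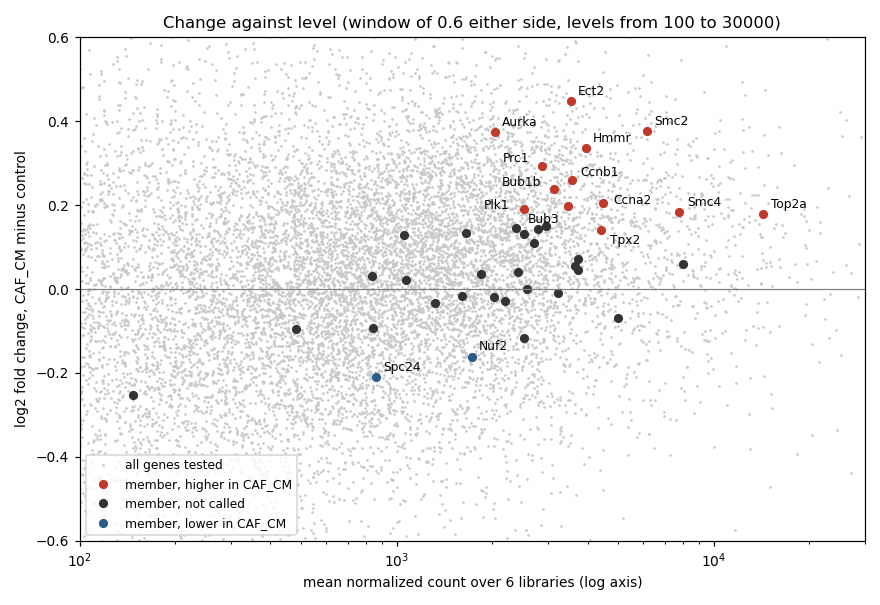
Each point is a gene, with its mean normalized count over the 6 libraries on a log axis and its log2 fold change, CAF_CM minus control; members are coloured by their call and all genes tested are grey. The called members lie between -0.21 and 0.45, inside the cloud of other genes, and most sit at levels above 1000.

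Long members split the CAF_CM libraries. The longest annotated transcript of 7 members exceeds 5000 bases, and in all 7 CAF_CM replicate 1 was the lowest of the 3 CAF_CM libraries. Cenpf, a large kinetochore and centromere protein with a transcript of 11130 bases, had 2966, 4507 and 4050 normalized counts in CAF_CM libraries, against 3457, 3666 and 3685 in control libraries. Aspm, a spindle pole protein whose human gene is mutated in microcephaly, had 1276, 1778 and 1757 normalized counts in CAF_CM libraries, against 1512, 1608 and 1695 in control libraries. In both genes replicate 1 was the lowest and replicates 2 and 3 the highest of all 6 libraries. Cenpe, the kinetochore kinesin, had 2382, 2978 and 3081 normalized counts in CAF_CM libraries, against 2493, 2622 and 2657 in control libraries, the same order. Espl1, which encodes separase, had 2102, 2559 and 2623 normalized counts in CAF_CM libraries, against 2636, 2664 and 2560 in control libraries, with replicate 1 alone far below. None of these 4 passed the test (limma adjusted p = 0.677 for Cenpf, 0.926 for Aspm, 0.333 for Cenpe and 0.255 for Espl1).

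Over all genes, differences from the control mean also went with transcript length, but not in every library, and hardly in CAF_CM replicate 1. Across 15362 genes, which are not independent replicates, the Spearman correlation of transcript length with the log2 difference from the control mean was 0.0187 in CAF_CM replicate 1, 0.315 in replicate 2 and 0.258 in replicate 3. Control libraries also differed from each other, at -0.198, 0.0341 and 0.177 for control replicates 1, 2 and 3, each of which is part of that mean. Genes over 5000 bases had a median difference of 0.017, 0.21 and 0.18 in replicates 1, 2 and 3, and the 7 members in that class had medians of -0.12, 0.20 and 0.17. Without CAF_CM replicate 1, Cenpf (0.25, limma adjusted p = 0.00128), Cenpe (0.23, limma adjusted p = 9.90e-04) and Aspm (0.14, limma adjusted p = 0.0459) were called higher. After the length and GC correction, Aspm (-0.23, limma adjusted p = 0.0158) and Espl1 (-0.23, limma adjusted p = 0.00419) were called lower, and the values of Cenpf and Cenpe were -0.14 and -0.075. The direction of Cenpf, Cenpe and Aspm therefore depends on the setting. Smc2, with 5404 bases, was called higher with and without these changes.

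**Figure D4:**
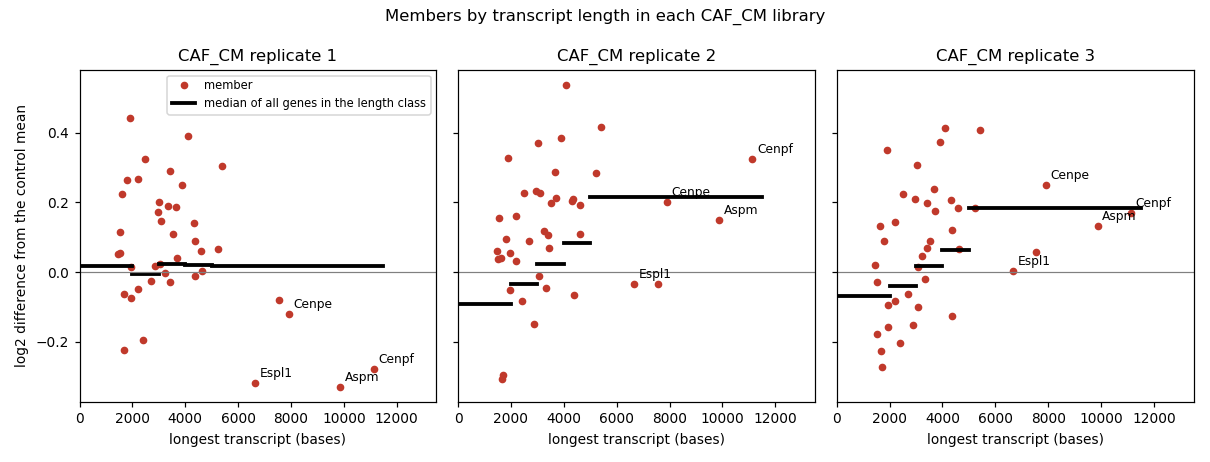
The 3 panels are the CAF_CM libraries; each red point is a member, placed by the length of its longest annotated transcript in bases and its log2 difference from the control mean, and black lines are the medians of all genes in 5 length classes, the last one open-ended. The lines climb with length in replicates 2 and 3 and stay near 0 in replicate 1, where Cenpf, Aspm, Cenpe and Espl1 lie below 0.

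Per kilobase of longest annotated transcript, the level of Top2a was the highest in the set, at 2917 normalized counts per kilobase in CAF_CM and 2573 in control libraries. Cenpa followed with 2580 and 2501 in that order, and Pttg1 was lowest with 80.2 and 95.8. The order rests on the annotated length, which for Mad2l1 is that of a transcript of 7557 bases.

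The 118 other mitosis genes tested, of a list of 119, gave 36 rises (30.5%) and 12 falls (10.2%). Their median log2 fold change was 0.057. Of all genes, 18.3% were called higher and 16.1% lower. Of all genes with a mean of at least 1000 normalized counts, 34.0% were called higher and 13.8% lower. Shares at matched levels were not computed for this list. The count of rises was 21 with library totals, 17 without control replicate 1 or 2, 22 without control replicate 3 and 24 without CAF_CM replicate 3, and the count of falls was 5 without any 1 control library. With the length and GC correction there were 33 rises and 14 falls. Cohesin and the remaining condensin genes gave 11 rises (68.8%) and 1 fall (6.25%) in 16, with a median of 0.22. Several that rose, among them Stag1 and Stag2, have annotated transcripts over 5000 bases, as does Mau2, which fell. All genes over 5000 bases had median differences from the control mean of 0.017, 0.21 and 0.18 in CAF_CM replicates 1, 2 and 3. The length and GC correction covered these genes too, but its calls were not counted for the cohesin and condensin genes alone. The part of transcript length in these rises was not tested. Cohesin holds sister chromatids together until separase cuts it. Stag1 (log2 fold change 0.36), Cdca5, which encodes the cohesion protector sororin (0.34), and Stag2 (0.32) led the rises, while the cohesin loader gene Mau2 fell (-0.20). Among 18 genes of APC/C and exit, 8 rose and Cdc26 fell (-0.17). The scaffold subunit gene Anapc1 (0.33), the phosphatase gene Cdc14b (0.29) and the subunit gene Cdc27 (0.28) led these rises. DESeq2 called 5 of the 18 higher and 0 lower, so the fall of Cdc26 was not called there. Spindle and cytokinesis genes outside the member set gave 10 rises and 2 falls in 32. Kif11, the motor that pushes spindle poles apart, had 4584, 4996 and 4857 normalized counts in CAF_CM libraries, against 3513, 3524 and 3662 in control libraries. Kpna2 (0.35) and the microtubule polymerase gene Ckap5 (0.32) also rose, and Spag5 (-0.23) and the minus-end kinesin gene Kifc1 (-0.21) fell.

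Other kinetochore and centromere genes moved both ways, with 4 rises (12.1%) and 6 falls (18.2%) in 33 and a median of -5.59e-04. Over all genes the shares were 18.3% and 16.1%, so the share of falls was close to that of all genes. DESeq2 called 3 of the 33 higher and 4 lower. Zwint (0.33), Mis12 (0.30) and Ska2 (0.22) rose, and Ska1 (-0.34), Zwilch (-0.27) and Cenpk (-0.25) fell. Among 15 genes of entry control and transcription, the kinases that hold Cdk1 inactive went in opposite directions. Besides Cks1b (0.19) and the phosphatase gene Cdc25a (0.17), Wee1 rose, at 1178 ± 60.4 normalized counts in CAF_CM and 965 ± 44.6 in control libraries, and Pkmyt1 fell, at 847 ± 59.0 and 1208 ± 28.5 in that order, as did Bora, a cofactor in the activation of Plk1 (-0.42). The transcription factors of the G2/M wave showed no call, with Foxm1 at 3016 ± 220 normalized counts in CAF_CM and 2989 ± 50.3 in control libraries and Mybl2 at 2495 ± 45.6 and 2554 ± 153. Mki67, the proliferation marker, had 9108, 13393 and 12499 normalized counts in CAF_CM libraries, against 13671, 14234 and 14565 in control libraries. All CAF_CM libraries lay below the controls, and the fall missed the threshold (log2 fold change -0.30, limma adjusted p = 0.0578). It was called lower with library totals (-0.34, limma adjusted p = 0.0370), with separate weights for the groups (0.0141), after the length and GC correction (-0.51, 1.19e-04) and without CAF_CM replicate 1 (-0.13, 0.0250) or 2 (-0.41, 0.00749). The remaining 4 checkpoint genes gave no call in limma, edgeR or DESeq2 and none at an unadjusted p under 0.05 in limma.

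Genes of G1/S control and DNA replication, set beside the mitotic genes, gave 8 rises (13.3%) and 15 falls (25%) in 60 tested. Their median was -0.017. The shares were 18.3% and 16.1% over all genes, and 34.0% and 13.8% over those with a mean of at least 1000 normalized counts. The primase gene Prim1 (-0.44), the replication kinase gene Cdc7 (-0.38) and the licensing inhibitor gene Gmnn (-0.32) fell most. Ccne1, the cyclin of S phase entry, also fell (-0.20), and Fen1 (0.29), E2f3 (0.27) and Orc2 (0.25) rose. The difference between these lists was not tested.

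**Figure D5:**
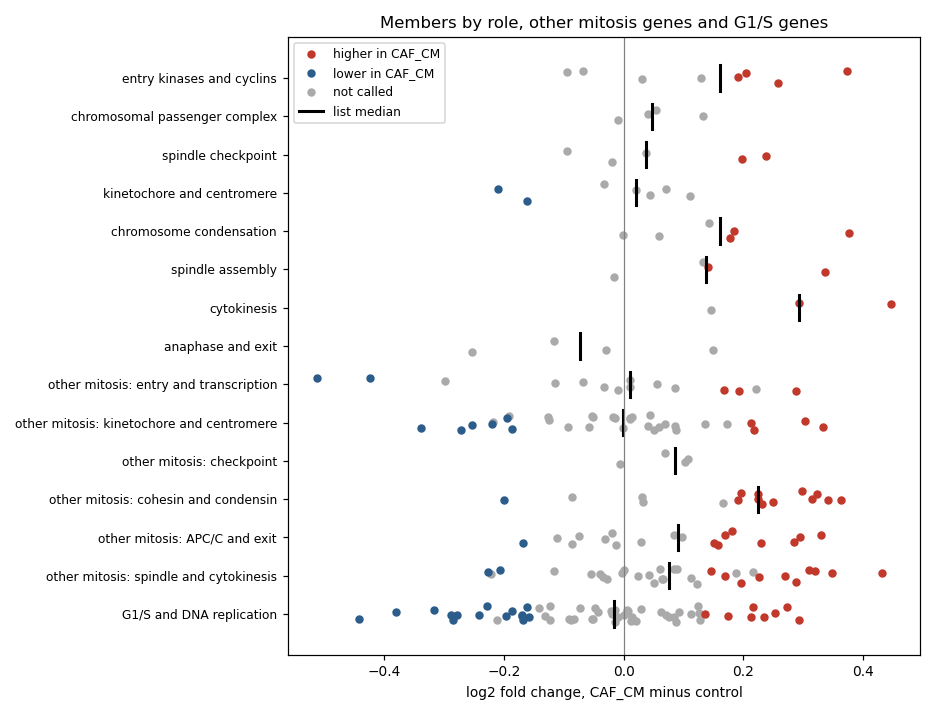
Each point is a gene and each row a list, with the log2 fold change, CAF_CM minus control, on the axis; red and blue points passed limma's adjusted p of 0.05 and black bars are list medians. The rows of entry kinases and cyclins, condensation, spindle assembly, cytokinesis and cohesin have medians of 0.16, 0.16, 0.14, 0.29 and 0.22. The G1/S row reaches down to -0.44, and the row of other entry and transcription genes reaches -0.51.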

How the data were processed

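The values deposited by the authors are a signal with no negative values, 1 for each gene in each library, in the form of read counts that the authors had scaled with a single size factor for every library. Dividing a library's values by its own unit step, 0.949 to 1.05 depending on the library, gave integers for 100% of them (tolerance 0.001 reads), and these recovered reads were used for count tests. FastQC, DESeq2 and hg19 appear in the submitters' processing notes, although the symbols in the table are mouse ones. Aligner, counting program, strand use and mouse build are not given in the sources used here. RNA integrity numbers were 10 and the libraries were made with an Illumina TruSeq RNA kit, per the labels' protocols. Of 20764 rows, 168 carry no symbol and were left out (0.153% to 0.261% of reads).

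Differences were tested with limma 3.58.1 in R 4.3.3, with its variance trend, on log2(value + 1) of the 16169 genes that reached 10 normalized counts in 3 or more libraries, with Benjamini-Hochberg adjustment and a threshold of 0.05. Fold changes are on that scale, which understates changes of low genes. Limma fits 1 variance to both groups. The test was also run on simulated counts of independent libraries with no length trend. That run does not bear on length trends or on replicates that may be technical. edgeR 4.0.16, run on the recovered reads, called 2888 genes higher and 2682 lower. DESeq2 1.42.0, other scalings, pseudocounts and filters, splines that removed length and GC trends library by library (longest GENCODE M21 protein-coding transcript of each symbol, 95.0% of genes tested), the replicate number as a block and leaving out each library were alternatives. Exons of 9 members overlap a protein-coding gene on the other strand.

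The members and lists were chosen with earlier results of these data known, as were the tests. Every member is reported. Genes outside the member set are, for each list, the 3 called with the largest change in each direction, and Foxm1, Mybl2, Mki67, Kif11 and Ccne1. Genes named for overlapping exons or as markers, and Ccnb1.ps, were added after their values were seen. Lin54 was not analysed here.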

Additional observations from a re-analysis of the deposited data

How the results depend on the processing

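Of 15 members called, 8 (Ect2, Smc2, Aurka, Hmmr, Prc1, Ccnb1, Bub1b and Ccna2) were called in the same direction under all 19 alternatives. The other 7 lost the call under at least 1. Plk1 lost it without control replicate 1 or 3, Smc4 without control replicate 1 or 2, and Bub3, Nuf2, Spc24, Top2a and Tpx2 without any 1 control library. Nuf2 and Tpx2 also lost it without CAF_CM replicate 3, and Spc24, Top2a and Tpx2 without CAF_CM replicate 2 or 3. With library totals Top2a and Tpx2 lost the call, and Pttg1 was called lower (-0.30, limma adjusted p = 0.0400).

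Leaving out each library in turn gave 8 to 19 members higher and 0 to 3 lower, 1868 to 3509 genes higher and 1659 to 2943 lower, and 17 to 44 other mitosis genes higher and 5 to 14 lower. The lowest count of members higher, 8, came without control replicate 1 and the highest, 19, without CAF_CM replicate 1. The count of members lower was 0 in limma without CAF_CM replicate 3 or any 1 control library, with 2 at an unadjusted p under 0.05 in each case, and 0 in DESeq2, also with 2 at an unadjusted p under 0.05. It was 2 in edgeR, 1 without CAF_CM replicate 2 and 4 with the length and GC correction. With library totals 21 other mitosis genes were higher.

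The signs of some members that were not called turned. With library totals the log2 fold changes were -0.014 for Ccnb2, -0.0043 for Birc5, -0.0088 for Bub1, -9.04e-04 for Cenpa, -0.025 for Spc25 and -0.035 for Foxm1. With the length and GC correction they were 0.075 for Aurkb, -0.075 for Cenpe, -0.14 for Cenpf, 0.030 for Ncaph, 0.012 for Fzr1 and -0.041 for Foxm1, and in DESeq2 2.41e-04 for Ncaph. Over the left-out libraries the values ran from -0.031 to 0.14 for Ccnb2, -0.040 to 0.035 for Aurkb, -0.033 to 0.085 for Birc5, -0.058 to 0.012 for Mad2l1, -0.055 to 0.25 for Cenpf, -3.68e-05 to 0.048 for Spc25, -0.045 to 0.031 for Ncaph, -0.099 to 0.14 for Aspm, -0.055 to 0.0060 for Fzr1, -0.047 to 0.052 for Foxm1 and -0.066 to 0.016 for Mybl2. The cause was not tested.

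The groups share replicate numbers, but nothing says that a number marks a shared culture. Deviations of same-numbered libraries from their group means correlated at 0.0703, 0.0291 and 0.0305 across genes for numbers 1, 2 and 3, and each library correlated best with its own number. With the replicate number as a block, 16 members were higher and 2 lower, the added calls being Cdc20 (limma adjusted p = 0.0340), Anln (0.0407) and Ncapg (0.0423), Mki67 was called lower (0.0111), and 3166 genes were higher and 2755 lower. The least abundant member, Pttg1, had 129 normalized counts or more in each library.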
